A study of Mus musculus with 15 samples.

Results

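The circadian clock genes described here are *Arntl*, *Clock*, *Per1*, *Per2*, *Per3*, *Cry1*, *Cry2*, *Nr1d1*, *Nr1d2* and *Dbp*. They were chosen by name from the known core of the mammalian clock, and all 10 symbols were found among the 21110 genes of the data. RNA-Seq had been made from ears of C57BL/6 mice of 2 genotypes, wild type and *Socs3* conditional knockout (*Socs3* cKO), at 2 and 10 weeks after birth. The 2-week groups held 4 mice each, and the 10-week groups held 3 wild type and 4 *Socs3* cKO mice. In the *Socs3* cKO mice, *Socs3*, an inhibitor of cytokine signalling through JAK and STAT proteins, was deleted with a keratin 5-specific system. Keratin 5 is the keratin of basal keratinocytes, and cells that neither made it nor descend from cells that made it keep the gene. The wild type mice were C57BL/6 mice, and whether they carried the Cre transgene or floxed alleles is not given in the sources used here. Nothing in the labels says which mice were littermates, and p-values measure the spread between these mice.

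The clock runs in nearly every cell of the body as a loop of transcription and feedback. ARNTL (also called BMAL1) and CLOCK bind as a pair to E-box sequences and switch on the *Per* and *Cry* genes, whose proteins return to the nucleus and repress that pair. The same pair switches on *Nr1d1* and *Nr1d2*, whose REV-ERB proteins repress *Arntl* through ROR elements, and *Dbp*, whose protein binds D-boxes in genes such as *Per3*. In a running clock the RNA of *Arntl* peaks when that of *Dbp*, *Nr1d1* and the *Per* genes is low, and in skin the clock is known to time cell division and the hair cycle. The level of *Arntl* and *Clock* against that of the *Per*, *Nr1d* and *Dbp* genes can therefore serve as a sign of the phase at which a tissue was taken. The hour at which the ears were taken is not given in the sources used here. The numbers that open the sample titles lie in a separate range for each group, and what they stand for is not given. Hour of sampling, any batch and group therefore cannot be told apart in any comparison that follows.

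Letters that match such elements were looked for in the promoters of these genes, and the stretches that held them are printed here. The sequences are from RefSeq on the build GRCm38.p6, 5′ to 3′ on the strand of the gene, with the element in capitals. The window searched ran from 250 bases before to 50 bases after each gene's start, on both strands, for the E-box CACGTG, for the E'-box CACGTT, which reads AACGTG on the opposite strand, for the D-box TTATGTAA, for the ROR element TAGGTCA and for the CRE TGACGTCA. The stretches are *Per1* at chr11:69098736-69098835 on the plus strand, *Cry1* at chr10:85185072-85185171, *Cry2* at chr2:92434183-92434282, *Nr1d1* at chr11:98775378-98775477 and *Per3* at chr4:151044794-151044893 on the minus strand, and *Arntl* at chr7:113207530-113207558 on the plus strand.
Per1: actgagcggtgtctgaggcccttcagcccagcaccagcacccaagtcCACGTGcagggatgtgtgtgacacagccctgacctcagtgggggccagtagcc
Cry1: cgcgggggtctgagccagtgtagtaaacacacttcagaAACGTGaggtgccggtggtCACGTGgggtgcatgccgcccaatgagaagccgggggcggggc
Cry2: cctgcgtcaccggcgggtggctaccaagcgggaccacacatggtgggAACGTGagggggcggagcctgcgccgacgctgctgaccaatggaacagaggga
Nr1d1: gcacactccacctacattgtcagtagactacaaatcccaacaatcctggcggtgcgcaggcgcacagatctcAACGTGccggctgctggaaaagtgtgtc
Per3: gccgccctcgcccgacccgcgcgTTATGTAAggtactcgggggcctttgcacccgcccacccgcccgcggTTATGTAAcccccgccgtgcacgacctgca
Arntl: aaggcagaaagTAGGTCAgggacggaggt

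*Per1* and *Cry1* held an E-box, *Cry1*, *Cry2* and *Nr1d1* held an E'-box, *Per3* held a pair of D-boxes that began at positions -205 and -158 from its start, and *Arntl* held a ROR element at positions 30 to 36. Of the 32851 windows of all genes, 7.15% held the E-box letters, 4.68% the E'-box, 0.938% the D-box, 2.61% the ROR element and 1.79% the CRE. Of the 10 genes, 9 had a window, with 13 windows between them, and *Per2* had none. A gene is named above if any of its windows held the letters, while the shares are per window. No window of these genes held the CRE. The windows of *Clock*, *Dbp* and *Nr1d2* held none of these letters, which says only that the letters are not in these windows. A match describes the sequence and is not a measured binding site. On mm9, the build to which the reads were aligned, the genes lie at chr11:68908719-68923462 (*Per1*), chr1:93312561-93355907 (*Per2*), chr4:150377761-150418774 (*Per3*), chr10:84594447-84647799 (*Cry1*) and chr2:92243803-92274200 (*Cry2*). *Arntl* lies there at chr7:120350979-120457636, *Clock* at chr5:76639992-76733817, *Dbp* at chr7:52960458-52965525, *Nr1d1* at chr11:98629246-98636647 and *Nr1d2* at chr14:19036568-19071641, all in the annotation of GENCODE vM1.

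The values are FPKM, reads scaled for the length of the gene and for all mapped reads. This scaling does not make levels fully comparable between mice or between genes. The FPKM of a library summed to between 436293 and 671904, and libraries differed in their trend with GC content, as given below. Depth was estimated from the step between low FPKM values at 11900000 to 16800000 reads per library, which puts at least 119 reads behind every value of the 10 genes and a counting error of at most 9.15% of the value. The label names keratinocytes as the source, but the RNA was of whole ear pieces. Summed over 8 keratinocyte markers the level ranged from 5841 to 12459 FPKM, and beside it stood 3858 to 14859 FPKM over 6 fibroblast markers and 540 to 3643 FPKM over 8 skeletal muscle markers. Fewer cells of a type and less RNA per cell cannot be told apart in such samples. The hair shaft and follicle list, 8 keratins, summed to between 1864 and 2735 FPKM in the wild type at 2 weeks, and to at most 53.8 FPKM in the 11 other mice. *Socs3* itself was 1.25, 9.32, 12.6 and 3.51 FPKM in the *Socs3* cKO mice of 2 weeks, against 9.71 to 10.3 FPKM in their controls. At 10 weeks it was 29.8 to 47.7 FPKM against 2.02 to 4.81 FPKM, so that the targeted RNA was higher, not lower, in the libraries labelled *Socs3* cKO, and *Socs3* cKO stands throughout for the libraries so labelled. The 3 wild type libraries of 10 weeks listed 1414 to 3176 genes at 0, against 4044 to 4423 in the others. *Socs3* cKO replicate 1 at 2 weeks stood apart from all other libraries. In it the genes of highest GC content lay 2.32 lower, in the median on the log2 scale, than those of lowest GC content, relative to their means over all mice, where the 14 other libraries lay between -0.405 and 0.789.

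**Figure D1:**
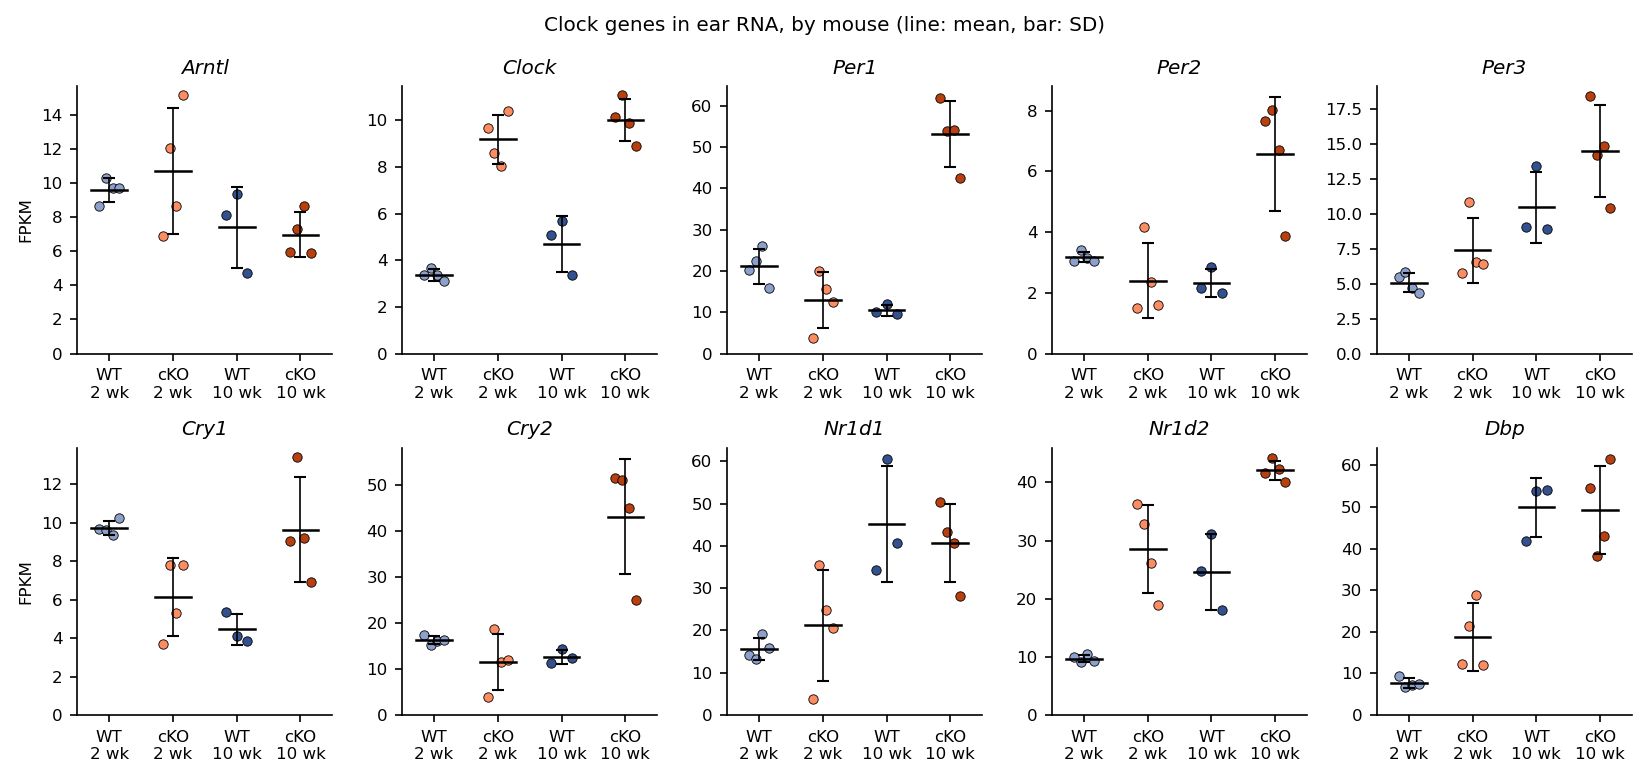
FPKM (y axis, from 0) of the 10 clock genes in each mouse, by genotype and age, with the group mean as a line and the SD as a bar (wild type n = 4 and 3, Socs3 cKO n = 4 and 4). Per1 in the 10-week Socs3 cKO mice lies between 42.4 and 61.9, above all other mice, and Dbp lies between 6.81 and 9.38 in the 2-week wild type and between 38.2 and 61.5 in the 7 mice of 10 weeks.

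The comparison of *Socs3* cKO with the wild type asks how loss of *Socs3* in keratinocytes alters the ear, and was made within each age with limma on log2(FPKM + 0.1), with Benjamini-Hochberg adjustment over all tested genes. A gene was called where the adjusted p was below 0.01 and the absolute log2(FC) at least 1. At 2 weeks *Clock* and *Nr1d2* were called higher and no clock gene was called lower, so that 2 of 10 were called, against 14.4% of the 13524 genes tested (7.24% higher and 7.19% lower). At an unadjusted p under 0.05, 3 clock genes were higher and 1, *Cry1*, was lower. The share of all tested genes under that p was not computed, for this or any later comparison. Counts at an unadjusted p therefore cannot be set against all genes. At 10 weeks *Per1*, *Per2*, *Cry1*, *Cry2* and *Clock* were called higher and again none was called lower by limma, nor was any lower at an unadjusted p under 0.05. These were 5 of 10, against 14.9% of 13105 genes (12.5% higher and 2.43% lower). The median log2(FC) of all tested genes was -0.21 at 2 weeks and 0.31 at 10 weeks, and that of the 10 clock genes was 0.09 and 0.94.

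*Clock* encodes the partner of ARNTL in the activating pair. At 2 weeks the wild type mice had 3.36, 3.69, 3.36 and 3.10 FPKM and the *Socs3* cKO mice 9.69, 8.60, 8.05 and 10.4 FPKM. At 10 weeks the wild type mice had 5.07, 5.67 and 3.35 FPKM and the *Socs3* cKO mice 10.1, 11.1, 9.91 and 8.91 FPKM. The 8 *Socs3* cKO mice were thus all above the 7 wild type mice, and the groups did not overlap at either age. The log2(FC) was 1.41 at 2 weeks (SE 0.15, limma adjusted p = 0.000345) and 1.10 at 10 weeks (SE 0.22, limma adjusted p = 0.00462), 1.63 and 0.79 above the median of all genes. The difference between the 2 ages was -0.31 (SE 0.25, limma adjusted p = 0.319 for the interaction).

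*Arntl* encodes the partner without which the mouse clock stops. The 2-week wild type mice had 8.66, 10.3, 9.74 and 9.70 FPKM of it, and the *Socs3* cKO mice of that age 6.88, 12.1, 8.64 and 15.2 FPKM. The 10-week wild type mice had 8.11, 9.36 and 4.73 FPKM, and the *Socs3* cKO mice of that age 5.97, 7.32, 8.69 and 5.88 FPKM. The groups overlapped at both ages. The log2(FC) was 0.09 at 2 weeks (95% interval -0.46 to 0.65) and -0.05 at 10 weeks (95% interval -0.64 to 0.54), and limma called neither.

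*Per1* and *Per2* encode repressors of the activating pair and also answer quickly to stress hormones and growth signals. For *Per1* the 2-week values were 20.2, 22.3, 26.2 and 15.97 FPKM in wild type mice, and 3.76, 19.9, 15.7 and 12.4 FPKM in *Socs3* cKO mice. The 10-week values were 10.1, 12.0 and 9.47 FPKM in wild type mice, and 61.9, 53.9, 54.2 and 42.4 FPKM in *Socs3* cKO mice. Each of the 4 *Socs3* cKO mice of 10 weeks was above every other mouse of the series, while the genotypes overlapped at 2 weeks. The log2(FC) was 2.32 at 10 weeks, or 5.00-fold (SE 0.18, limma adjusted p = 5.15e-05), and -0.91 at 2 weeks (SE 0.47, limma adjusted p = 0.132). The change in the genotype difference from 2 to 10 weeks was 3.24 (SE 0.55, limma adjusted p = 0.000786), the largest of the 10 genes.

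*Per2* had the same order of group means at a lower level. Its 2-week values were 3.06, 3.41, 3.15 and 3.06 FPKM in wild type mice, and 1.50, 4.16, 2.37 and 1.58 FPKM in *Socs3* cKO mice. Its 10-week values were 2.14, 2.85 and 1.99 FPKM in wild type mice, and 7.64, 8.03, 6.71 and 3.87 FPKM in *Socs3* cKO mice. The genotypes overlapped at 2 weeks only. The log2(FC) was -0.50 at 2 weeks (SE 0.31, limma adjusted p = 0.194), 1.42 at 10 weeks (SE 0.28, limma adjusted p = 0.00500), and 1.92 for the difference between the ages (SE 0.44, limma adjusted p = 0.00387). The 2-week value was 0.003 after quantile normalization, and the interaction then had an adjusted p of 0.0208 (limma) with a value of 0.99.

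*Per3*, the member of the family whose promoter held the D-boxes, is not needed for the loop to run. Mice of 2 weeks had 5.46, 5.81, 4.70 and 4.29 FPKM as wild type and 5.78, 10.8, 6.52 and 6.38 FPKM as *Socs3* cKO. Mice of 10 weeks had 9.05, 13.4 and 8.91 FPKM as wild type and 18.4, 14.1, 14.8 and 10.4 FPKM as *Socs3* cKO. The genotypes overlapped at both ages, with log2(FC) of 0.50 (95% interval -0.01 to 1.01) and 0.46 (95% interval -0.06 to 0.99). The difference between those values was -0.04 (95% interval -0.76 to 0.68).

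**Figure D2:**
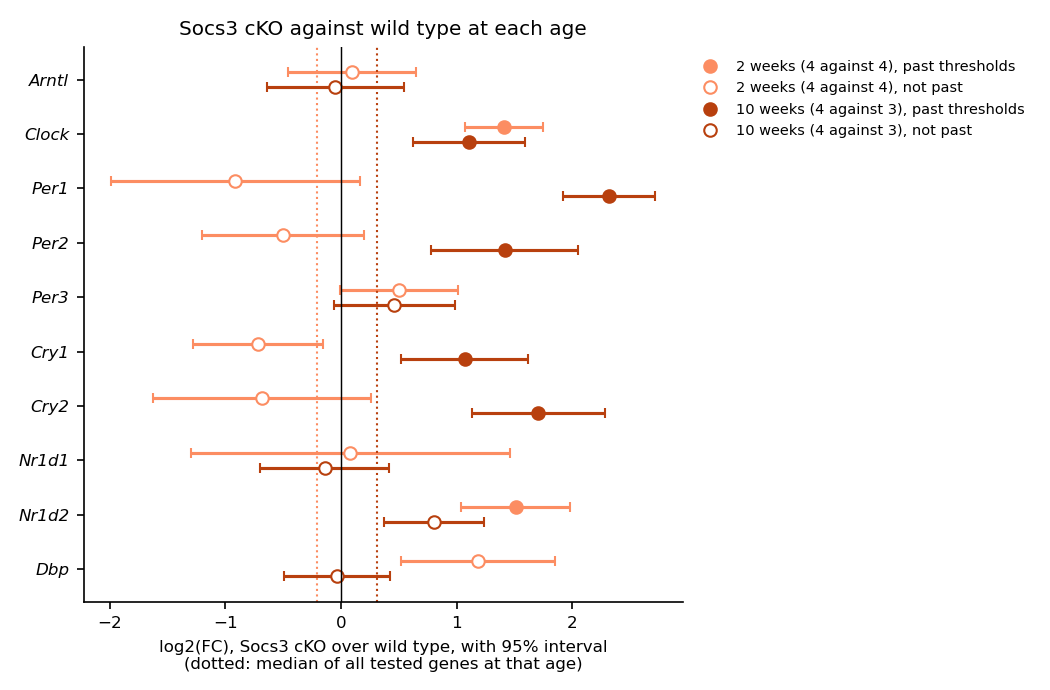
The log2(FC) of Socs3 cKO over wild type (x axis) for each clock gene at 2 weeks (light, n = 4 against 4) and 10 weeks (dark, n = 4 against 3), with 95% intervals from limma; filled points passed both thresholds and dotted lines are the medians of all tested genes. Per1, Per2, Cry1 and Cry2 lie below 0 at 2 weeks and at 1.07 or more at 10 weeks, while Clock lies above 1 at both ages.

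The cryptochrome genes *Cry1* and *Cry2*, whose proteins bind PER and hold the activating pair in check, were both called higher at 10 weeks. *Cry1* in mice of 2 weeks was 9.68, 9.63, 9.35 and 10.3 FPKM for the wild type, and 3.67, 7.80, 5.29 and 7.81 FPKM for *Socs3* cKO. In mice of 10 weeks *Cry1* was 5.37, 4.13 and 3.87 FPKM for the wild type, and 9.06, 13.4, 9.20 and 6.91 FPKM for *Socs3* cKO. All *Socs3* cKO mice were thus below the wild type at 2 weeks and above it at 10 weeks. The log2(FC) of *Cry1* was -0.72 at 2 weeks (SE 0.25, limma adjusted p = 0.0409), which missed the threshold, and 1.07 at 10 weeks (SE 0.25, limma adjusted p = 0.00906). *Cry2* in mice of 2 weeks was 17.3, 15.1, 16.2 and 16.4 FPKM for the wild type, and 3.92, 18.7, 11.6 and 11.9 FPKM for *Socs3* cKO. In mice of 10 weeks *Cry2* was 11.4, 14.35 and 12.3 FPKM for the wild type, and 51.4, 51.0, 45.0 and 25.0 FPKM for *Socs3* cKO. The genotypes overlapped at 2 weeks, through *Socs3* cKO replicate 2, and not at 10 weeks. Its log2(FC) was -0.69 at 2 weeks (SE 0.41, limma adjusted p = 0.187) and 1.71 at 10 weeks (SE 0.26, limma adjusted p = 0.00150). The interaction was called for both, at 1.79 for *Cry1* (SE 0.36, limma adjusted p = 0.00196) and 2.39 for *Cry2* (SE 0.53, limma adjusted p = 0.00334).

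*Per1*, *Per2*, *Cry1* and *Cry2* were the 4 of 10 clock genes called for the interaction, against 25.6% of 13937 genes at an adjusted p below 0.01 (18.5% higher and 7.05% lower). None was called lower, and at an unadjusted p under 0.05 limma found *Dbp* and *Nr1d2* lower, so that 2 were lower and 4 higher. The median interaction of all genes was 0.55, and that of the 10 clock genes was -0.09. Of the 10-week calls, those of *Per1* and *Cry2* were kept whichever mouse was left out. The count fell from 5 to 2 without wild type replicate 1 or 3, or without *Socs3* cKO replicate 1, 2 or 3 of that age, when *Per2*, *Cry1* and *Clock* missed the threshold of the adjusted p or the fold. The share of all tested genes called fell in these fits as well, from 14.9% to between 5.76% and 9.43%. Without wild type replicate 2 or *Socs3* cKO replicate 4 that share was 20.7% and 16.4%. Of the interactions, 2 remained without wild type replicate 1 or 3 of 10 weeks, when *Per2* (1.87 and 1.82) and *Cry2* (2.32 and 2.37) were not called. The share over all genes was then 14.4% and 14.6%. Without *Socs3* cKO replicate 1 of 2 weeks, the library that stood apart in GC content, the interaction was 2.73 for *Per1*, 1.74 for *Per2*, 1.57 for *Cry1* and 1.95 for *Cry2*, all called, and *Dbp* was called as well, at -1.38 (limma adjusted p = 0.00551). In that fit 34.7% of all genes were called for the interaction. The log2(FC) at 2 weeks was then -0.40 for *Per1*, -0.33 for *Per2*, -0.50 for *Cry1* and -0.24 for *Cry2*, with none called by limma and *Cry1* alone under an unadjusted p of 0.05.

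The REV-ERB genes *Nr1d1* and *Nr1d2* encode nuclear receptors that repress *Arntl*. For *Nr1d2* the wild type mice gave 9.99, 9.04, 10.4 and 9.26 FPKM at 2 weeks, where the *Socs3* cKO mice gave 36.3, 32.8, 26.1 and 19.0 FPKM. The wild type mice gave 24.8, 31.1 and 18.0 FPKM at 10 weeks, where the *Socs3* cKO mice gave 41.6, 44.2, 42.3 and 40.1 FPKM. *Socs3* cKO lay above the wild type at both ages without overlap. The log2(FC) of *Nr1d2* was 1.51 at 2 weeks (SE 0.21, limma adjusted p = 0.00125) and 0.80 at 10 weeks (SE 0.19, limma adjusted p = 0.0113), the latter short of both thresholds.

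*Nr1d1* at 2 weeks was 14.1, 13.3, 19.2 and 15.8 FPKM in wild type mice, and 3.88, 35.6, 24.8 and 20.7 FPKM in *Socs3* cKO mice. Replicate 1 of *Socs3* cKO was the lowest of all 15 mice, and the 3 other *Socs3* cKO mice were above the wild type. The log2(FC) was 0.08 (95% interval -1.30 to 1.46) with that library and 0.76 without it (limma adjusted p = 0.00964, under the fold threshold). At 10 weeks *Nr1d1* was 34.3, 60.5 and 40.7 FPKM in wild type mice, and 50.3, 43.2, 40.6 and 28.2 FPKM in *Socs3* cKO mice, a log2(FC) of -0.14 (95% interval -0.70 to 0.41). Of the 3124 exon bases of *Nr1d1*, 263 lie opposite exons of *Thra*, and counting by strand is not stated, so that reads of the shared bases cannot be told apart. *Thra*, the gene of a thyroid hormone receptor, ranged at 2 weeks from 53.9 to 57.7 FPKM in wild type mice and from 3.22 to 31.1 FPKM in *Socs3* cKO mice. At 10 weeks it ranged from 8.80 to 23.2 and from 27.0 to 32.8 FPKM, so that its group means stood in another order than those of *Nr1d1*.

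*Dbp*, which encodes a bZIP activator driven straight from the E-box pair and is often used as a readout of it, was the clock gene that differed most with age in the wild type. Wild type mice had 9.38, 6.81, 7.14 and 7.39 FPKM of it at 2 weeks, then 41.7, 53.8 and 54.2 FPKM at 10 weeks. *Socs3* cKO mice had 12.4, 21.5, 28.9 and 12.1 FPKM at 2 weeks, then 54.5, 38.2, 42.9 and 61.5 FPKM at 10 weeks. *Socs3* cKO was above the wild type in 4 of 4 mice at 2 weeks, with a log2(FC) of 1.19 (SE 0.29, limma adjusted p = 0.0138) that missed the threshold of the adjusted p, and overlapped it at 10 weeks, with a log2(FC) of -0.03 (95% interval -0.49 to 0.42). Of its 2945 exon bases, 491 lie opposite exons of *Sphk2*, with the same limit as for *Nr1d1*. That limit also holds for *Cry2*, where 295 of 6320 exon bases lie opposite *D930015M05Rik*, a noncoding RNA that is not in the data. *Dbp* was called at 2 weeks without *Socs3* cKO replicate 1 (1.35, limma adjusted p = 0.00274). With quantile normalization the 2-week value was 1.50 (limma adjusted p = 0.00204), and with median-of-ratios scaling 1.39 (limma adjusted p = 0.00518).

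Groups without overlap were found for 4 of the 10 clock genes at 2 weeks, *Clock*, *Nr1d2* and *Dbp* above the wild type and *Cry1* below it, against 56.1% of all tested genes (22.9% above and 33.2% below). At 10 weeks they were found for 6 of 10, all above the wild type, against 42.3% of all tested genes (31.2% above and 11.1% below).

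GC content moved with the genotype comparison at 2 weeks. Among the 2608 tested genes of lowest GC content (33.2% to 44.7%) the median log2(FC) was 0.48, and among the 2607 of highest GC content (56.3% to 72.9%) it was -1.08. *Clock* and *Nr1d2*, the genes called at this age, had transcripts of 41.6% and 41.8% GC, the lowest of the clock genes, while *Per1* (59.4%) and *Dbp* (61.7%) were the highest. At 10 weeks the same medians were 0.54 and -0.002. After the trend of each library with GC content and transcript length was removed, a step chosen after seeing the data, *Nr1d2* was still called at 2 weeks at 1.02 (limma adjusted p = 0.00237), and *Clock* was at 0.92 (limma adjusted p = 0.00226), under the fold threshold. *Dbp* was then called at 2.02 (limma adjusted p = 0.000529) and *Per3* at 1.09 (limma adjusted p = 0.000789), and *Per1*, *Per2* and *Cry2* at 2 weeks turned from below to above 0, at 0.38, 0.31 and 0.16, and limma called none of them. At 10 weeks *Per1* (2.29), *Cry2* (1.63) and *Per2* (1.13) kept their calls, and *Cry1* (0.99) and *Clock* (0.52) were below a log2(FC) of 1. The median interaction rose from 0.13 among the genes of lowest GC content to 1.10 among those of highest. With the trend removed the interaction was 1.92 for *Per1* (SE 0.25, limma adjusted p = 5.18e-05), 1.49 for *Cry1* (SE 0.31, limma adjusted p = 0.00178) and 1.48 for *Cry2* (SE 0.30, limma adjusted p = 0.00154). That of *Per2* was 0.83 and no longer called (SE 0.29, limma adjusted p = 0.0319), and *Dbp* (-1.56) and *Per3* (-0.98) were called lower.

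**Figure D3:**
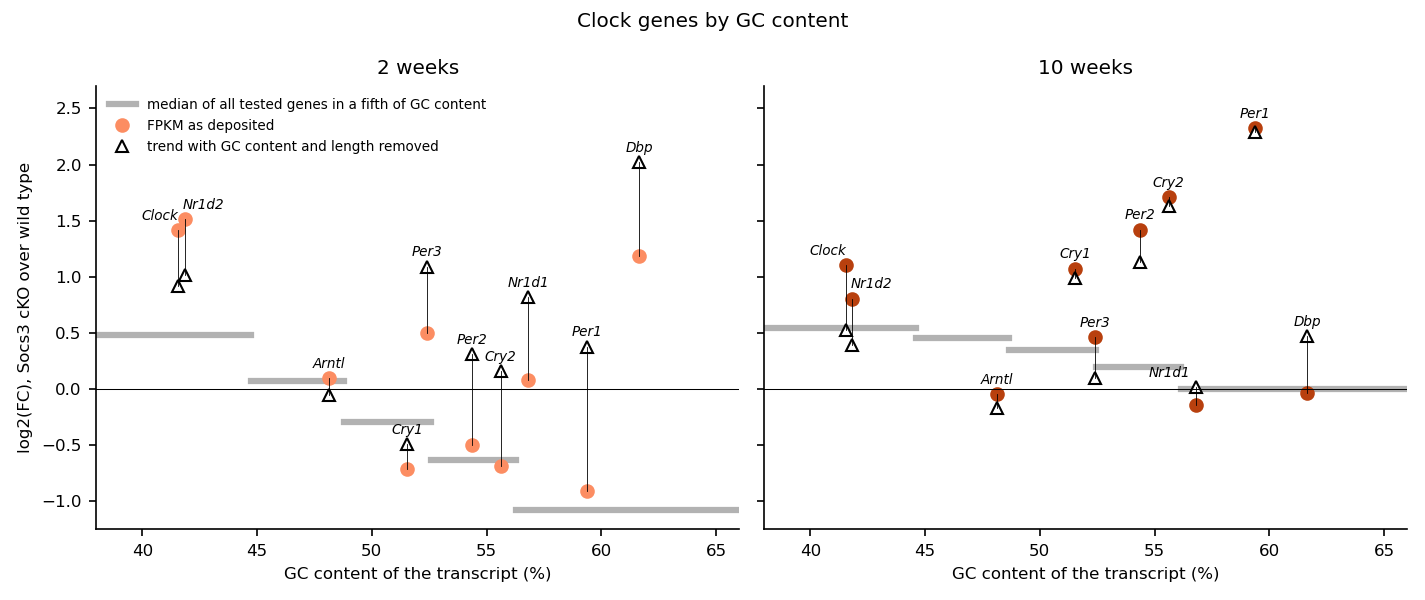
The log2(FC) of Socs3 cKO over wild type (y axis) against the GC content of the transcript in percent (x axis) for the 10 clock genes, at 2 weeks (left) and 10 weeks (right); triangles are the values after removal of each library's trend with GC content and length, and grey bars the median of all tested genes in bins of GC content. At 2 weeks the grey bars fall from 0.48 to -1.08 and the triangle of Dbp stands at 2.02, and at 10 weeks Per1 stays at 2.29.

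The change with age was fitted on all 15 mice. In the wild type, *Dbp* rose by 2.69 from 2 to 10 weeks (SE 0.28, limma adjusted p = 6.87e-06), *Nr1d2* by 1.31 (SE 0.21, limma adjusted p = 0.000302) and *Per3* by 1.01 (SE 0.25, limma adjusted p = 0.00410), and *Cry1* fell by 1.12 (SE 0.26, limma adjusted p = 0.00342). These were 4 of 10 called, against 25.5% of 13937 genes (6.18% higher and 19.4% lower). *Nr1d1* was higher in 3 of 3 mice, at 1.50 (SE 0.53, limma adjusted p = 0.0305), and was called in the fit of the wild type mice alone (limma adjusted p = 0.000317). Groups of the 2 ages did not overlap for 8 of the 10 clock genes, 4 above and 4 below, against 66.8% of all tested genes (17.3% above and 49.5% below). *Arntl* was at -0.43 (95% interval -1.01 to 0.16). The median over all genes was -0.44, and over the 10 clock genes 0.04. The count was 2 without wild type replicate 4 of 2 weeks or replicate 2 of 10 weeks, when *Per3* and *Cry1* missed a threshold. The share over all genes was then 20.5% and 27.6%. The hair shaft and follicle list was called lower with age in 8 of 8 genes in the wild type, and its part in these values was not tested.

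In *Socs3* cKO, *Per1* was higher at 10 than at 2 weeks by 2.25 (SE 0.38, limma adjusted p = 0.00172), *Cry2* by 2.03 (SE 0.36, limma adjusted p = 0.00273), *Per2* by 1.48 (SE 0.30, limma adjusted p = 0.00616) and *Dbp* by 1.47 (SE 0.26, limma adjusted p = 0.00254). They were 4 of 10 called, against 3.54% of all genes (2.01% higher and 1.53% lower), and the median over all genes was 0.11. None was called lower, and 1, *Arntl*, was lower at an unadjusted p under 0.05 (-0.57). Groups of the 2 ages did not overlap for 4 of 10, all above, against 14.5% of all tested genes (7.71% above and 6.79% below). The spread in these tests was shared with the wild type mice. In the fit of the *Socs3* cKO mice alone, limma called 0 of the 10 with the same differences, 6 at an unadjusted p under 0.05, with adjusted p of 0.0320 for *Per1*, 0.0347 for *Dbp*, 0.0428 for *Cry2* and 0.0649 for *Per2*. The count was 1 without replicate 1 of 10 weeks and 2 without replicate 2 or 3 of that age. The share over all genes was then 2.29%, 2.23% and 2.16%.

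For the phase, the mean log2(FPKM + 0.1) of *Arntl* and *Clock* was subtracted within each mouse from that of the 6 output genes *Per1*, *Per2*, *Per3*, *Dbp*, *Nr1d1* and *Nr1d2*. In mice of 2 weeks this difference was 0.69, 0.45, 0.66 and 0.50 for the wild type, and -0.38, 0.72, 0.63 and -0.44 for *Socs3* cKO. In mice of 10 weeks it was 1.10, 1.37 and 1.77 for the wild type, and 2.01, 1.61, 1.54 and 1.61 for *Socs3* cKO. The 7 mice of 10 weeks were all above the 8 mice of 2 weeks, and the genotypes overlapped at each age. The wild type mean was 0.57 ± 0.12 (SD, n = 4) at 2 weeks and 1.41 ± 0.34 (SD, n = 3) at 10 weeks, and the *Socs3* cKO mean was 0.13 ± 0.63 (SD, n = 4) and 1.69 ± 0.21 (SD, n = 4). The *Socs3* cKO mean was thus 0.44 below the wild type at 2 weeks, but 0.51 above it once the trend with GC content and length was removed. It was 0.28 above the wild type at 10 weeks, 0.56 above it with the trend removed, and at -0.03 when *Per1* was left out of the output genes. Both parts of the score had a higher group mean in *Socs3* cKO, but not in every mouse. The output mean was 3.42 against 3.11 at 2 weeks and 4.76 against 3.95 at 10 weeks. The activator mean was 3.29 against 2.54 at 2 weeks (3.05 to 3.66 against 2.46 to 2.65). At 10 weeks it was 3.07 against 2.54, where the genotypes overlapped (2.875 to 3.230 against 2.030 to 2.885). Of the activators, *Clock* differed by 1.41 and 1.10, and *Arntl* by 0.09 and -0.05. The lower mean score at 2 weeks thus came with a higher activator mean and not with a lower output mean. The score without *Clock* or without *Arntl* was not computed.

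**Figure D4:**
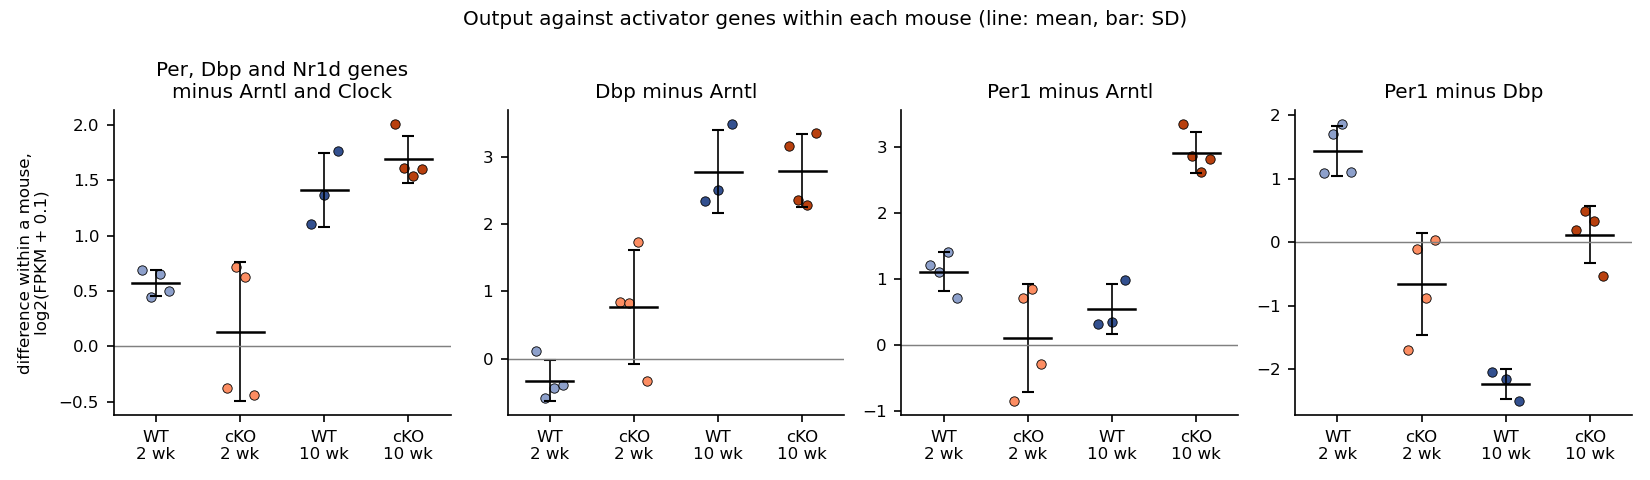
Differences within each mouse on the log2(FPKM + 0.1) scale (y axis) by genotype and age, with group mean (line) and SD (bar): 6 output genes minus Arntl and Clock, then Dbp minus Arntl, Per1 minus Arntl and Per1 minus Dbp. Dbp minus Arntl lies between 2.29 and 3.49 in all 7 mice of 10 weeks, and Per1 minus Dbp at 10 weeks lies between -2.50 and -2.04 for the wild type and between -0.54 and 0.50 for Socs3 cKO.

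The single output genes stood differently against *Arntl*. The ratio of *Dbp* to *Arntl* in FPKM at 2 weeks was 1.08, 0.66, 0.73 and 0.76 for the wild type, and 1.80, 1.78, 3.35 and 0.80 for *Socs3* cKO. At 10 weeks the ratio was 5.14, 5.75 and 11.45 for the wild type, and 9.12, 5.22, 4.94 and 10.5 for *Socs3* cKO. By this ratio the mice separated by age, and the genotypes overlapped. *Per1* minus *Arntl* on the log2 scale at 10 weeks was 0.31, 0.35 and 0.99 for the wild type, and 3.35, 2.86, 2.63 and 2.83 for *Socs3* cKO, with no overlap. Its mean at 2 weeks was 1.11 (SD 0.30, n = 4) for the wild type and 0.11 (SD 0.82, n = 4) for *Socs3* cKO. *Per1* minus *Dbp* at 2 weeks ran from 1.10 to 1.86 for the wild type and from -1.69 to 0.04 for *Socs3* cKO, and at 10 weeks from -2.50 to -2.04 and from -0.54 to 0.50. *Socs3* cKO was thus below the wild type in every mouse at 2 weeks and above it in every mouse at 10 weeks. Within the activating pair, *Clock* minus *Arntl* at 2 weeks ran from -1.62 to -1.34 for the wild type and from -0.54 to 0.49 for *Socs3* cKO, and at 10 weeks from -0.71 to -0.49 and from 0.19 to 0.75. The genotypes did not overlap in it at either age. The transcripts of *Clock* and *Arntl* had 41.6% and 48.1% GC. The differences between single genes were not computed with the trend in GC content and length removed.

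The other genes of the clock pathway were taken from lists of 23 genes, of which 22 were in the data and 20 were tested at each age. At 2 weeks 2 were called higher and 2 lower, against 14.4% of all tested genes (7.24% higher and 7.19% lower). At 10 weeks 5 were called higher, against 12.5% of all tested genes, and none lower, against 2.43%, with 1 gene lower at an unadjusted p under 0.05 by limma. *Rora*, which encodes the nuclear receptor that competes with REV-ERB proteins at ROR elements and activates *Arntl*, ranged at 2 weeks from 0.65 to 1.62 FPKM for the wild type and from 6.00 to 19.6 FPKM for *Socs3* cKO. At 10 weeks it ranged from 0.77 to 1.35 FPKM for the wild type and from 9.40 to 30.7 FPKM for *Socs3* cKO. Its log2(FC) was 3.13 at 2 weeks (SE 0.40, limma adjusted p = 0.000953) and 4.14 at 10 weeks (SE 0.39, limma adjusted p = 0.000178). *Gm129*, the older symbol of *Ciart*, whose protein represses the activating pair, was called higher at both ages too, at 1.50 (SE 0.20) and 1.01 (SE 0.19).

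*Nfil3* encodes E4BP4, which represses through the same D-boxes that DBP activates. At 2 weeks it was 18.6 to 20.1 FPKM for the wild type, and 1.46, 5.07, 4.73 and 4.23 FPKM for *Socs3* cKO. At 10 weeks it was 2.38, 1.66 and 2.03 FPKM for the wild type, and 20.9, 20.2, 26.7 and 16.8 FPKM for *Socs3* cKO. The genotypes lay apart in opposite directions at the 2 ages, with log2(FC) of -2.43 (SE 0.36, limma adjusted p = 0.00182) and 3.32 (SE 0.21, limma adjusted p = 1.93e-05) and an interaction of 5.75 (SE 0.45, limma adjusted p = 2.42e-06). *Dbp* and *Nfil3* thus moved in opposite directions with age in the wild type, *Nfil3* by -3.21 (SE 0.33, limma adjusted p = 6.17e-06). In *Socs3* cKO both were higher at 10 than at 2 weeks, *Dbp* by 1.47 and *Nfil3* by 2.54. *Bhlhe40* and *Bhlhe41*, which encode the DEC repressors of E-boxes, were called higher at 10 weeks, at 2.62 and 1.76, and not at 2 weeks, where *Bhlhe40* was at 0.21 and *Bhlhe41* at -1.05. *Csnk1e*, a kinase that marks PER proteins for turnover, was lower at 2 weeks (-1.60, SE 0.36, limma adjusted p = 0.00980) and was not called there after removal of the trend with GC content and length (-0.80, limma adjusted p = 0.0103). *Tef* and *Hlf*, the relatives of *Dbp*, were at 0.22 and 0.06 at 2 weeks and at 0.35 and -0.15 at 10 weeks, and neither was called.

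**Figure D5:**
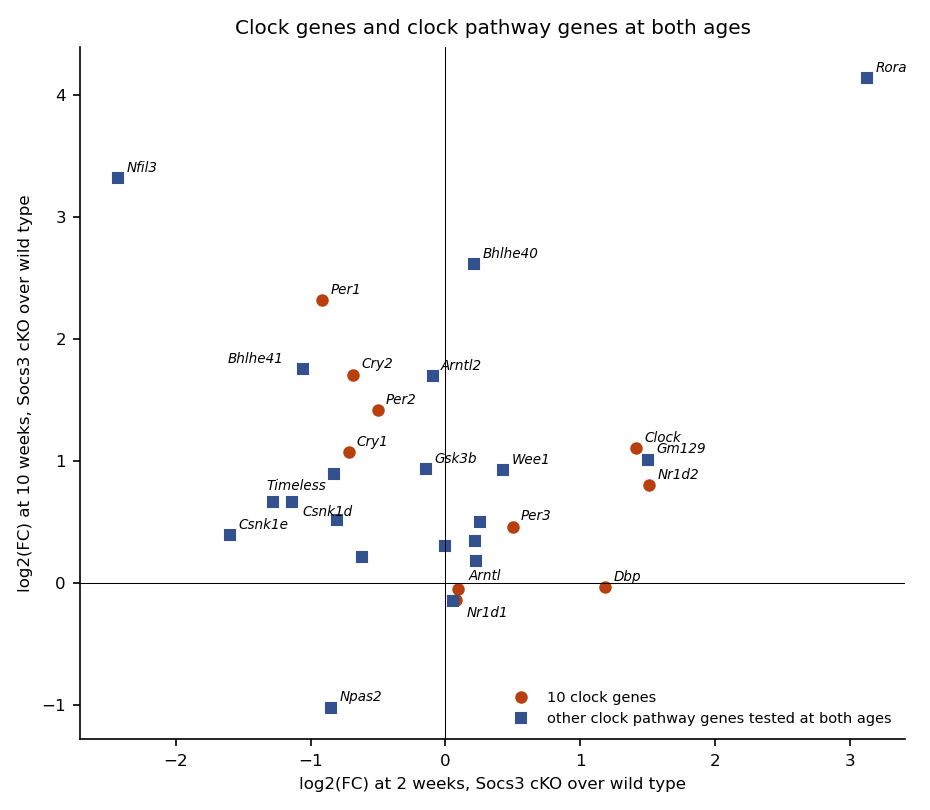
The log2(FC) of Socs3 cKO over wild type at 2 weeks (x axis) and 10 weeks (y axis) for the 10 clock genes (circles) and the other clock pathway genes tested at both ages (squares). Per1, Cry2, Per2, Cry1, Bhlhe41 and Nfil3 lie in the upper left, below 0 at 2 weeks and above 1 at 10 weeks, and Rora, Clock, Gm129 and Nr1d2 in the upper right.

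Because *Per1* also answers to glucocorticoids and to growth signals, lists of such genes were set beside it. The shares of all tested genes to hold these lists against were 7.24% higher and 7.19% lower at 2 weeks, and 12.5% higher and 2.43% lower at 10 weeks. Of 6 glucocorticoid-responsive genes 1 was called higher at 2 weeks, *Tsc22d3* (1.32), and 4 were called higher at 10 weeks, among them *Klf9* (3.82), *Zbtb16* (2.78) and *Sgk1* (1.76). The median of that list was -0.003 at 2 weeks and 1.58 at 10 weeks. Of 7 immediate-early genes limma called 0 at 2 weeks, with 0 at an unadjusted p under 0.05, and 7 higher at 10 weeks, with medians of -0.22 and 3.54. The part of such signals in the values of *Per1* and *Per2* was not tested. Cell type lists differed between the genotypes too. At 2 weeks 8 of 8 hair shaft and follicle genes were called lower, 6 of 8 skeletal muscle genes, 3 of 8 keratinocyte genes and 3 of 5 sebaceous gland genes were called higher, and of 6 fibroblast genes 1 was higher and 3 were lower. At 10 weeks 4 of 7 myeloid and 3 of 5 endothelial genes were called higher, 3 of 8 skeletal muscle genes were lower, and of 8 keratinocyte genes 1 was lower and none was higher. The myeloid markers summed at 2 weeks to 201 to 233 FPKM for the wild type and 632 to 888 FPKM for *Socs3* cKO, and at 10 weeks to 260 to 442 and 604 to 1867 FPKM. At 2 weeks 2 of 7 myeloid genes were called higher, and the markers did not move alike. Mean *S100a8* and *S100a9* were 6.7 and 5.2 FPKM for the wild type and 183 and 127 FPKM for *Socs3* cKO. Mean *Csf1r* was 27.5 and 31.5 FPKM, and mean *Itgam* was 3.53 and 2.02 FPKM. At 10 weeks *S100a8* ran from 7.42 to 838 FPKM in *Socs3* cKO. The part of these lists in the clock gene values was not tested.

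The genes whose log2(FPKM + 0.1) was most like that of a clock gene over the 15 mice were sought among 13927 others. For *Per1* they were *Mafk*, *1300014I06Rik* and *Gcc1*, with Pearson r of 0.979, 0.976 and 0.968. For *Dbp* they were *Ramp3*, *Myoc* and *Gm11428*, at 0.942, 0.938 and 0.931, and for *Arntl* they were *2310003C23Rik*, *Ypel2* and *Fut2*, at 0.851, 0.847 and 0.835. The mice fall into 4 groups that also differ in GC content, so that these values describe groups and mice together.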

How the data were processed

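Ear RNA of 15 mice was sequenced as single reads of 50 bases on an Illumina HiSeq. Reads were aligned to mm9, and the authors deposited 1 FPKM value per gene and mouse, scaled for gene length and mapped reads. The submitters' processing notes name TopHat2 2.1.0 and Cufflinks. The authors tested genes with edgeR, and that step was not repeated because read counts were not used here. The paper states more wild type mice than are in these groups, and the others were not analysed here.

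Values were analysed as log2(FPKM + 0.1) with limma 3.58.1 in R 4.3.3, 2-sided, with a trend in the prior variance and Benjamini-Hochberg adjustment. Genes with at least 1 FPKM in at least 3 of the fitted samples were tested. Genotypes were compared within each age, and the interaction and the changes with age were fitted on all 15 samples. Called genes had an adjusted p below 0.01 and an absolute log2(FC) of at least 1, and for the interaction an adjusted p below 0.01. A fold change on the log2(FPKM + 0.1) scale understates that of low genes. The limma step was tested on simulated data. Files were checked for copies, and no 2 shared more than 1 identical value. GC content and exon overlap came from GENCODE vM1 on mm9, where 20533 of 21110 symbols matched. Other steps used Python 3.11.15, numpy 2.4.6, pandas 2.3.3, scipy 1.17.1 and matplotlib 3.10.9.

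The members and all lists were chosen with earlier results of these data known. Named are the 10 members, pathway genes called in either genotype comparison, the 3 genes most like *Arntl*, *Dbp* and *Per1*, *Thra*, *Socs3*, and up to 3 genes of the glucocorticoid and immediate-early lists. *Tef*, *Hlf* and the values of *Tsc22d3* were added after their values were seen. Alternatives were pseudocounts of 1 and 0.01, median-of-ratios and quantile scaling, other filters, a constant prior variance, another set of samples in the fit, a replicate block, leaving out each mouse, and, chosen after seeing the data, removal of trends with GC content and length.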

Additional observations from a re-analysis of the deposited data

Results flagged for a closer look

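The genotype difference was not the same at the 2 ages for *Per1*, *Per2*, *Cry1* and *Cry2*, by the interaction term of limma. The log2(FC) at 10 weeks less that at 2 weeks was 3.24 for *Per1*, 1.92 for *Per2*, 1.79 for *Cry1* and 2.39 for *Cry2*. With the trend in GC content and length removed, a step chosen after seeing the data, the values were 1.92 for *Per1*, 0.83 for *Per2* (limma adjusted p = 0.0319, not called), 1.49 for *Cry1* and 1.48 for *Cry2*. The test passed for 6 of 20 pathway genes, against 25.6% of all genes, among them those named in the report, at 5.75 for *Nfil3*, 2.81 for *Bhlhe41*, 2.40 for *Bhlhe40* and 1.99 for *Csnk1e* (1.26 with the trend removed). The median of all genes was 0.55.

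In 2 groups of 4 mice, 1 mouse lay far from the other three by Dixon's ratio, past the critical value for 4 samples. *Per3* was 10.8 FPKM in *Socs3* cKO replicate 2 at 2 weeks (ratio 0.852). The difference of output and activator genes was 2.01 in *Socs3* cKO replicate 1 at 10 weeks (ratio 0.851). Chance alone gives about 1 such group in 20, and 51 were examined.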

How the results depend on the processing

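*Per1* and *Cry2* were called at 10 weeks, and *Clock* and *Nr1d2* at 2 weeks, whichever mouse was left out. The count at 10 weeks was 3 instead of 5 with a pseudocount of 1, with median-of-ratios scaling, with quantile normalization and with the trend in GC content and length removed, an alternative that was chosen after seeing the data. The share over all genes was then 12.5%, 13%, 13% and 12.6%, against 14.9%. For the wild type the count of changes with age was 2 instead of 4 with a pseudocount of 1. The share over all genes was 22.1% there, against 25.5%. For *Socs3* cKO that count was 0 instead of 4 in its own fit, where the calls over all genes also fell from 493 to 146. The cause was not tested. With 1 mouse left out, the counts ranged from 2 to 3 at 2 weeks, from 2 to 5 at 10 weeks, from 2 to 5 for the interaction, from 2 to 4 for the wild type with age and from 1 to 5 for *Socs3* cKO with age. The share over all genes ranged from 6.4% to 24.9% at 2 weeks, from 5.76% to 20.7% at 10 weeks. For the interaction it ranged from 14.4% to 36.8%, and with age from 15.9% to 27.6% (wild type) and from 2.16% to 5.03% (*Socs3* cKO). The output minus activator difference then lay between -0.639 and -0.252 for 2 weeks and between 0.121 and 0.454 for 10 weeks. It was 0.505 at 2 weeks and 0.557 at 10 weeks with the trend removed. Without *Per1* among the output genes it was -0.027 at 10 weeks.

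Among values that were not called, some changed sign. With the trend removed these were, at 2 weeks, *Per1* (0.377), *Per2* (0.31), *Cry2* (0.158) and *Arntl* (-0.05), at 10 weeks *Dbp* (0.471) and *Nr1d1* (0.012), and with age in the wild type *Per2* (0.332) and *Cry2* (0.272). With quantile normalization they were *Per2* at 2 weeks (0.003), *Per2* (0.255), *Cry2* (0.115) and *Arntl* (0.163) with age in the wild type, and *Clock* with age in *Socs3* cKO (-0.005), and with median-of-ratios scaling *Cry2* with age in the wild type (0.031). With 1 mouse left out, *Arntl* lay between -0.096 and 0.281 at 2 weeks, between -0.337 and 0.148 at 10 weeks and between -0.43 and 0.055 for the interaction. The same ranges of *Nr1d1* were -0.291 to 0.764, -0.32 to 0.088 and -0.907 to 0.148. *Dbp* at 10 weeks ranged from -0.157 to 0.08, and the interaction of *Per3* from -0.163 to 0.16.

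Whether the same replicate numbers pair the mice is not given. The correlation of same-numbered deviations lay between -0.041 and 0.135 for 2 weeks, and that of other numbers between -0.144 and 0.078. For 10 weeks these ranges were -0.209 to 0.068 and -0.241 to 0.17. Over so few mice such correlations cannot tell whether the mice were paired. With the replicate block the counts were 2, 5 and 4 for 2 weeks, 10 weeks and the interaction, and 3 and 4 for the wild type and *Socs3* cKO with age. The share over all genes was then 5.55%, 14.5% and 24.1%, against 14.4%, 14.9% and 25.6% without the block. With age it was 24.7% (wild type) and 2.58% (*Socs3* cKO), against 25.5% and 3.54%. The sign changed with the block for *Arntl* (0.026) and *Nr1d1* (0.022) at 10 weeks and for the interaction of *Per3* (0.054).

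Over all genes, 1638 were called higher and 319 lower at 10 weeks, against 1073 and 632 with median-of-ratios scaling and 923 and 776 with quantile normalization. For the wild type with age the split of 861 and 2698 became 1552 and 1746, and 1622 and 1705. For the interaction 2583 and 983 became 1806 and 1664, and 1888 and 2269. Depth left at least 119 estimated reads behind each clock gene value, and the error given for it covers counting only.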
